A study of Danio rerio with 7 samples.

Results

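Guidance genes encode the ligands and receptors by which cells attract, repel or hold their neighbours. Here they are the genes of the zebrafish cell line PAC2 whose names mark them as semaphorins, plexins, neuropilins, ephrins, Eph receptors, Slits, Robos, netrins, Unc5 receptors, neogenins or repulsive guidance molecules (Rgm). They were chosen by name, with no measured value in the rule, although earlier results of these data were known. The rule found 104 identifiers in the gene name table, of which 74 were among the 17570 genes of the count matrix, and the other 30, such as DCC, plxnd1, SEMA3A, SEMA6A, EPHB1, EFNB1 and NTN4, are not analysed here. PAC2 is a permanent line of wild-type zebrafish embryonic cells, and RNA was sequenced from untreated cultures on day 14 after seeding, in the stationary phase (replicates 1, 2 and 4), and on day 8, in the exponential phase (replicates 1 to 4). Each replicate was a separate cell passage begun on its own day, and each library holds cells from several wells of a plate. The medium was exchanged 7 days after seeding, so that cell density, days in culture and time since fresh medium cannot be told apart in this comparison.

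Guidance signals reach cells in different ways. Class 3 semaphorins, Slits and netrins are secreted and act at a distance from their source, whereas semaphorins of classes 4 to 7, ephrins and Rgm proteins are held in the membrane and reach cells that touch. Semaphorins signal through plexins, and most class 3 semaphorins need a neuropilin as co-receptor. Ephrins bind Eph receptor tyrosine kinases, and both partners can signal into the cell that carries them. Slits bind Robo receptors, netrins bind Dcc, neogenin and Unc5 receptors, and Rgm proteins bind neogenin. These proteins are best known from growing axons and blood vessels, and they also set boundaries and contact behaviour in connective tissue and epithelia. All cells of a culture were lysed together, so that fewer cells of a kind and less RNA per cell cannot be told apart.

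The libraries held 11252454 to 33414678 estimated counts, and 1 count was worth 0.0300 to 0.0773 CPM, the count relative to library size after scaling with the trimmed mean of M-values (TMM). CPM are not corrected for transcript length, so levels of single genes are compared between days for the same gene. Sums over several genes, and the share of a gene in such a sum, describe counts and not the abundance of transcripts. A list of 12 fibroblast marker names matched 12 genes: thy1 is not analysed here, and fn1b was matched to both genes named FN1. Of these genes, 10 were above 10 CPM in every library, whereas the vimentin copy that was matched stayed near 0. Of the 12, 7 were called higher on day 14, vimentin among them, and 1 lower, against 12.0% and 13.3% of all genes. Vimentin had 0.630 to 0.874 CPM on day 14 and 0.213 to 0.326 CPM on day 8. It may have passed the authors' filter for very low expression through day 14 alone. A call in the higher direction was then favoured from the start, so the 7 include a call that is no evidence of a rise. The vimentin call was kept in only 8 of the alternative settings described below. Without TMM scaling COL1A1, COL1A2, PDGFRA and twist1a were no longer called (edgeR adjusted p 0.0514 to 0.152). The summed level of the 12 was 7308 to 9496 CPM on day 14 and 4150 to 7126 CPM on day 8. The 3 neuronal markers that were matched summed to 1.49 to 2.39 CPM on day 14 and to 1.90 to 3.18 CPM on day 8, while 8 of the 12 names listed are not analysed here. Epithelial markers summed to 2124 to 2676 CPM on day 14 and to 1899 to 2885 CPM on day 8, nearly all of it krt18a.1 and krt4. Of the 4 genes matched, cdh1 (-1.26) and krt4 (-0.59) were called lower on day 14, and 2 of the 6 names listed are not analysed here. All 6 proliferation genes were lower on day 14. Within day 8, replicate 3 was the lowest library for 46 of the 74 guidance genes (62.2%, against 32.8% of all genes) and replicate 1 the highest for 45 (60.8%, against 30.9% of all genes). Fibroblast markers did not share 1 order: col1a1a was highest in replicate 1 and lowest in replicate 3, and twist1a the reverse. The part of this order in the results was not tested.

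A gene was called when the quasi-likelihood test of edgeR gave a Benjamini-Hochberg adjusted p below 0.05 over all genes. Of the 74 guidance genes, 17 were called higher on day 14 (23.0%) and 7 lower (9.46%), against a background of 12.0% of all genes called higher and 13.3% called lower. In either direction 24 guidance genes were called (32.4%), against 25.3% of all genes. Day 14 and day 8 did not overlap in CPM for 25 guidance genes (33.8%), against 34.8% of all genes. The median log2 difference, day 14 minus day 8, was 0.15 over guidance genes and 0.003 over all genes, and 43 of 74 guidance genes had a positive difference. This split depended on the setting. Without TMM scaling the median of all genes shifted to -0.17 and that of guidance genes to -0.04. Guidance genes were then called higher in 8 cases (10.8%, against 6.93% of all genes) and lower in 7 (9.46%, against 18.5%). With the replicate number as a block, all 24 calls remained and 10 were added. This gave 21 higher (28.4%, against 17.7% of all genes) and 13 lower (17.6%, against 18.9%), together 45.9%, against 36.6% of all genes. The median over guidance genes was 0.03 with the block. With 1 library left out at a time, it ranged from 0.030 (without day 8 replicate 3) to 0.232 (without day 8 replicate 1). Medians over all genes in these fits are not given here.

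The ligand and receptor classes differed in their counts. Of 22 membrane-anchored ligands, 7 were called higher and 3 lower (45.5%, against 25.3% of all genes), with a median log2 difference of 0.48. Of 13 secreted ligands, 1 was called higher and 1 lower (15.4%), with a median of -0.26. The 1 called higher, sema3gb, held few counts and may have passed the authors' filter for very low expression through day 14 alone. Of 38 receptors, 9 were called higher and 3 lower (31.6%), with a median of 0.09. Over all genes, 12.0% were called higher and 13.3% lower. The difference between the classes was not tested. With the replicate block, 9 membrane-anchored ligands were called higher and 3 lower, with a median of 0.41. Among secreted ligands 1 was called higher and 5 lower (median -0.37), and among receptors 10 higher and 5 lower (median -0.01). In that fit 17.7% of all genes were called higher and 18.9% lower. Without TMM scaling, 5 membrane-anchored ligands were called higher and 3 lower (median 0.30), and 1 secreted ligand in each direction (median -0.46). Of the receptors, 2 were called higher and 3 lower (median -0.08). Without this scaling 6.93% of all genes were called higher and 18.5% lower. Summed over its genes, the membrane-anchored class held 852, 814 and 797 CPM on day 14 and 915, 801, 648 and 677 CPM on day 8, so that the days overlapped in this sum while single members moved in both directions.

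**Figure D1:**
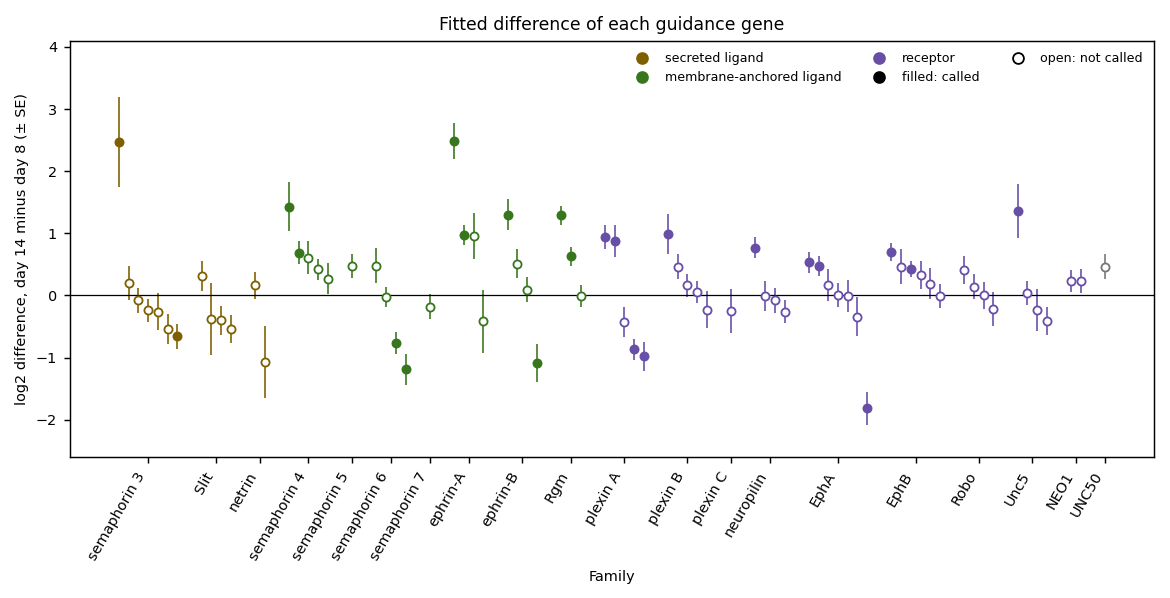
Fitted log2 difference (day 14 minus day 8, y axis, error bars ± SE) of each of the 74 guidance genes, grouped by family on the x axis and coloured by class, with filled points for genes called by edgeR and open points for the others. All 5 class 4 semaphorins lie above 0, the plexin A family splits into 2 genes called higher and 2 called lower, and the lowest point is epha2a at -1.82.

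Ephrin-A ligands, which are tied to the outer membrane by a lipid anchor, were called higher on day 14 in 2 of 4 genes (50.0%, against 12.0% of all genes). EFNA1, a ligand of EphA2 among other EphA receptors, had 61.1, 67.7 and 63.3 CPM on day 14 and 35.5, 33.7, 24.8 and 36.8 CPM on day 8. The days did not overlap, and the difference was 0.97 ± 0.16 (log2 ± SE, 1.96-fold, edgeR adjusted p = 0.00125, n = 3 and 4). EFNA2 ENSDARG00000079740 had 4.35, 5.94 and 6.28 CPM on day 14 and 1.08, 1.26, 0.598 and 0.938 CPM on day 8. Its lowest day 14 library was more than 3 times its highest day 8 library, and the log2 difference of 2.49 ± 0.29 (edgeR adjusted p = 1.81e-04) was the largest of all guidance genes. Both genes were called in all 17 alternative settings. The second gene named EFNA2 (ENSDARG00000031372) had 1.23, 2.10 and 1.44 CPM on day 14 and 1.00, 0.924, 0.544 and 0.767 CPM on day 8. These values did not overlap either, but the difference of 0.96 ± 0.37 was not called (edgeR adjusted p = 0.0765), except under the filter at 10 counts in every library (edgeR adjusted p = 0.0345). EFNA3 stayed below 1 CPM in every library and was not called.

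Ephrin-B ligands cross the membrane and bind mainly EphB receptors and EphA4. EFNB2 ENSDARG00000074050 had 3.33, 4.31 and 4.58 CPM on day 14 and 1.39, 1.74, 1.63 and 1.79 CPM on day 8. Without overlap, it was higher on day 14 by 1.30 ± 0.25 on the log2 scale (2.46-fold, edgeR adjusted p = 0.00273). The other gene named EFNB2, ENSDARG00000020164, had 97.5, 87.9 and 83.5 CPM on day 14 and 114, 90.2, 68.3 and 63.8 CPM on day 8. Its days overlapped, with a difference of 0.09 ± 0.20 (edgeR adjusted p = 0.773). By contrast efnb3a was lower on day 14, at 8.03, 6.24 and 5.75 CPM against 20.5, 17.6, 7.56 and 11.8 CPM on day 8. Day 14 replicate 1 lay above day 8 replicate 3, which makes efnb3a the only called guidance gene whose days overlapped. Its difference was -1.09 ± 0.30 (edgeR adjusted p = 0.0185), and the call was lost without day 14 replicate 2 or day 14 replicate 4 (edgeR adjusted p 0.0790 to 0.0895). Within same-numbered replicates efnb3a was lower on day 14 by 1.34, 1.49 and 1.03 on the log2 scale. EFNB3 differed by 0.51 ± 0.23 and was not called, except without day 8 replicate 1 (0.71, edgeR adjusted p = 0.0231).

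Class 4 semaphorins are transmembrane ligands, several of which bind plexin B receptors. All 5 measured genes had positive differences, with a median of 0.61, and 2 were called (40.0%, against 25.3% of all genes). sema4aa had 1.86, 1.98 and 2.55 CPM on day 14 and 0.386, 0.591, 0.924 and 1.19 CPM on day 8. It was higher on day 14 without overlap, by 1.43 ± 0.39 (edgeR adjusted p = 0.0176), but its lowest library held 5 counts. The call was lost without day 8 replicate 2 or day 14 replicate 4 (edgeR adjusted p 0.0521 to 0.0789). SEMA4B ENSDARG00000076104 had 8.78, 8.28 and 9.20 CPM on day 14 and 5.18, 5.36, 6.31 and 4.90 CPM on day 8. The day 14 libraries were close together and all higher than day 8, by 0.69 ± 0.18 (edgeR adjusted p = 0.0146), although without day 14 replicate 4 the adjusted p was 0.0570 and without TMM scaling 0.0581. SEMA4C, a ligand of plexin B2, had 22.5, 25.5 and 22.5 CPM on day 14 and 22.2, 16.7, 16.6 and 15.1 CPM on day 8. The days did not overlap, narrowly, and the difference of 0.42 ± 0.17 was not called (edgeR adjusted p = 0.0882), though it was with the replicate block (edgeR adjusted p = 0.0460) and without day 8 replicate 1 (edgeR adjusted p = 0.0220). sema4ab, with a difference of 0.61 ± 0.27, was called with the replicate block alone (edgeR adjusted p = 0.120 without the block and 0.0392 with it).

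Class 6 semaphorins are transmembrane ligands of plexin A receptors, and they were the membrane-anchored family with calls in the lower direction alone. SEMA6D had 178, 126 and 138 CPM on day 14 and 295, 271, 210 and 229 CPM on day 8. Every day 14 library was lower than every day 8 library, with a log2 difference of -0.77 ± 0.18 (1.71-fold lower, edgeR adjusted p = 0.00791), and the call was lost without day 14 replicate 2 (edgeR adjusted p = 0.0573). sema6ca had 1.53, 1.63 and 1.44 CPM on day 14 and 3.32, 3.51, 3.26 and 3.92 CPM on day 8. Few counts notwithstanding, its libraries agreed closely within each day, and the difference of -1.19 ± 0.25 (edgeR adjusted p = 0.00414) was called in all 17 alternative settings. SEMA6C, identified as ENSDARG00000000189, had 45.6, 41.3 and 41.1 CPM on day 14 and 54.2, 43.5, 36.0 and 41.4 CPM on day 8. All day 14 values lay within the day 8 range, the mean was 42.7 ± 2.53 CPM on day 14 and 43.7 ± 7.62 CPM on day 8 (SD, n = 3 and 4), and the difference of -0.03 ± 0.16 was not called in any setting (edgeR adjusted p = 0.903). sema6bb, at 4.05, 2.45 and 3.83 CPM on day 14 and 1.93, 2.29, 2.17 and 3.45 CPM on day 8, overlapped and was not called. SEMA5B and sema7a, each the only measured gene of its class, were not called, with differences of 0.47 ± 0.19 and -0.18 ± 0.20.

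Rgm proteins are anchored in the membrane by a lipid, bind neogenin and also act as co-receptors of bone morphogenetic proteins. RGMA had 154, 198 and 191 CPM on day 14 and 82.9, 73.0, 66.5 and 73.4 CPM on day 8. The day 14 libraries were all far above day 8, and the difference of 1.29 ± 0.15 (2.44-fold, edgeR adjusted p = 1.79e-04) was called in all 17 alternative settings. rgmd, a fish member of the family, had 18.6, 22.0 and 22.0 CPM on day 14 and 14.6, 12.5, 13.7 and 13.3 CPM on day 8. It was higher without overlap, by 0.63 ± 0.15 (edgeR adjusted p = 0.00983, and 0.0619 without TMM scaling). RGMB had 204, 180 and 153 CPM on day 14 and 226, 194, 157 and 144 CPM on day 8, which overlapped, with a difference of -0.01 ± 0.18 (edgeR adjusted p = 0.972). Neogenin, the receptor that the Rgm proteins share, was not called: NEO1 ENSDARG00000102855 had 44.9, 41.6 and 42.5 CPM on day 14 and 50.4, 37.2, 29.1 and 30.1 CPM on day 8 (0.23 ± 0.19, edgeR adjusted p = 0.411), and the other NEO1 gene also differed by 0.23.

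**Figure D2:**
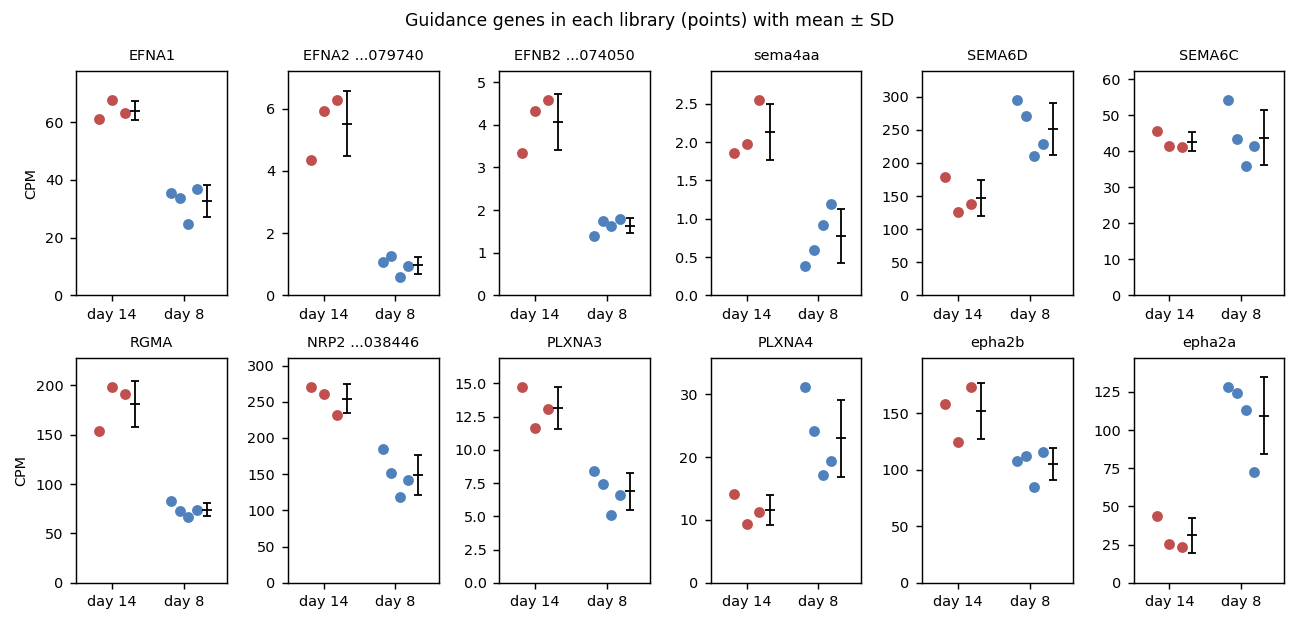
CPM (y axis) of 12 guidance genes in each day 14 library (red, left) and each day 8 library (blue, right), with mean ± SD beside the points (n = 3 and 4) and each panel's axis starting at 0. EFNA1, RGMA and NRP2 ENSDARG00000038446 are higher in every day 14 library, SEMA6D, PLXNA4 and epha2a are lower, and SEMA6C overlaps.

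Secreted ligands held few calls in the fit without the block. Class 3 semaphorins were called in 2 of 7 genes (28.6%, against 25.3% of all genes), in opposite directions. SEMA3C had 39.3, 23.7 and 35.3 CPM on day 14 and 61.9, 54.2, 42.9 and 48.2 CPM on day 8. Its days did not overlap and it was lower on day 14, with a difference of -0.66 ± 0.20 (1.58-fold lower, edgeR adjusted p = 0.0277), a call lost without day 8 replicate 2, day 14 replicate 2 or day 14 replicate 4 (edgeR adjusted p 0.0660 to 0.134). sema3gb had 0.719, 0.758 and 0.532 CPM on day 14 and 0.0773, 0.296, 0 and 0.0426 CPM on day 8. It was higher on day 14, by 2.47 ± 0.72 (edgeR adjusted p = 0.0255), but its libraries held between 0 and 24 counts. It was not tested under either filter on low counts. The call was lost without any of the 3 day 14 libraries or day 8 replicate 4 (edgeR adjusted p 0.0593 to 0.0788). With so few counts on day 8, sema3gb may have passed the authors' filter for very low expression through day 14 alone. A call in the higher direction was then favoured from the start, so the 28.6% includes a call that is no evidence of a rise. SEMA3E, which in mouse binds plexin D1 without a neuropilin, had 238, 174 and 246 CPM on day 14 and 274, 296, 195 and 272 CPM on day 8. The days overlapped because day 8 replicate 3 was low, and the difference was -0.24 ± 0.19 (edgeR adjusted p = 0.377). SEMA3F, in 2 genes, and sema3h were not called.

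Slits and netrins were not called in this fit, in which 25.3% of all genes were called. SLIT3 had 130, 104 and 83.6 CPM on day 14 and 206, 174, 102 and 130 CPM on day 8, which overlapped, with a difference of -0.54 ± 0.23 (edgeR adjusted p = 0.116). SLIT2 had 76.2, 64.7 and 64.0 CPM on day 14 and 125, 103, 56.1 and 77.4 CPM on day 8, and its difference was -0.40 ± 0.23 (edgeR adjusted p = 0.229). Without day 8 replicate 3 both were called lower, SLIT3 at -0.68 (edgeR adjusted p = 0.0261) and SLIT2 at -0.57 (edgeR adjusted p = 0.0365). In both genes day 8 replicate 3 was the lowest day 8 library, below at least 1 day 14 library. SLIT1 ENSDARG00000044954, at 103, 76.9 and 110 CPM on day 14 and 88.4, 82.6, 44.5 and 97.3 CPM on day 8, had a positive difference of 0.31 ± 0.24 that was not called. NTN1 ENSDARG00000105112, which encodes netrin-1, had 248, 226 and 239 CPM on day 14 and 274, 240, 131 and 208 CPM on day 8, a difference of 0.16 ± 0.21 (edgeR adjusted p = 0.635). The other gene named NTN1, ENSDARG00000022531, held as few as 2 counts in a library and had a difference of -1.07 ± 0.58 that was not called (edgeR adjusted p = 0.197).

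Of the 10 genes that the replicate block added, 6 were lower on day 14: SLIT2, SLIT3, SEMA3B, SEMA3E, NRP1 and PLXNA1 ENSDARG00000105452. The block added calls over the whole matrix too, where 18.9% of all genes were called lower with it and 13.3% without it. For guidance genes these shares were 17.6% and 9.46%. Each replicate number is a passage, and replicate 3 has no day 14 library, so that the block compares day 14 with day 8 within replicates 1, 2 and 4. SLIT3 was lower on day 14 by 0.67, 0.75 and 0.64 on the log2 scale within the 3 passages, and the blocked difference was -0.69 (edgeR adjusted p = 1.76e-04). SLIT2 was lower by 0.71, 0.67 and 0.27, with a blocked difference of -0.55 (edgeR adjusted p = 0.00230). Both were lower on day 14 in every passage. SEMA3E differed by -0.20, -0.77 and -0.15 within passages (blocked -0.37, edgeR adjusted p = 0.0400), and SEMA3B by -0.49, -1.06 and -0.47 (blocked -0.67, edgeR adjusted p = 0.0352). Among receptors, NRP1, a co-receptor of class 3 semaphorins, was lower with the block (-0.36, edgeR adjusted p = 0.0444), as was PLXNA1 ENSDARG00000105452 (-0.61, edgeR adjusted p = 0.0159), while PLXNB1 ENSDARG00000075821 was higher (0.39, edgeR adjusted p = 0.0440, and 0.00926 without the block and without day 8 replicate 1). In SEMA3B, SEMA3E, NRP1 and PLXNA1 ENSDARG00000105452 the largest of the 3 differences was that of replicate 2. Besides SEMA4C and sema4ab, the tenth added gene was UNC50, a Golgi protein that meets the rule by its letters, belongs to no class, and was higher with the block (0.63, edgeR adjusted p = 7.81e-04) but not without it (0.46 ± 0.20, edgeR adjusted p = 0.110), unless day 8 replicate 3 was left out (0.64, edgeR adjusted p = 0.0177).

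**Figure D3:**
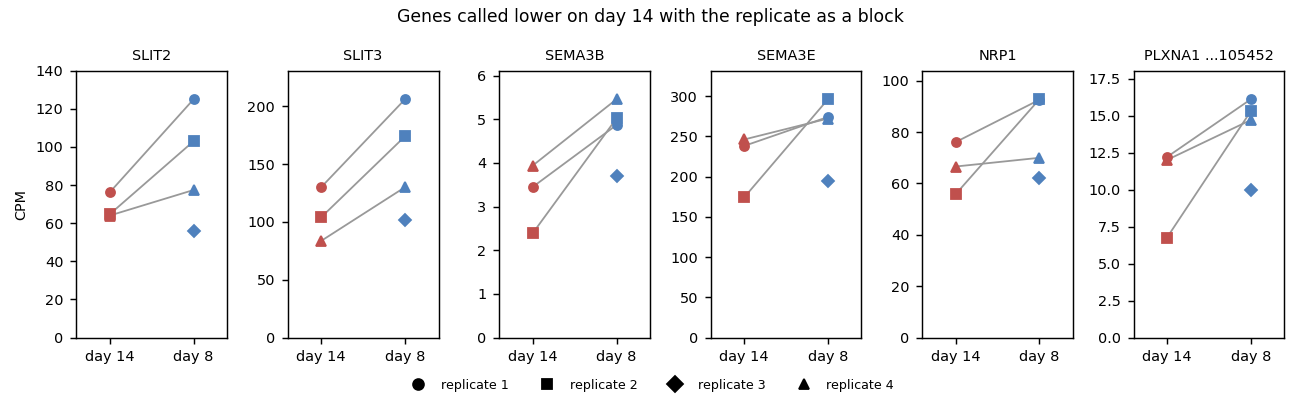
CPM (y axis, from 0) on day 14 (left) and day 8 (right) of 6 genes called lower on day 14 with the replicate block but not in the fit of all 7 libraries without it, with lines joining libraries of the same replicate number and a marker shape for each number. Every line ends lower on day 14, and day 8 replicate 3, which has no partner, is the lowest day 8 library in each panel.

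Plexins are the main semaphorin receptors and carry an intracellular domain that acts on small GTPases. Plexin A genes were called in 4 of 5 cases (80.0%, against 25.3% of all genes) and split evenly. PLXNA3 had 14.7, 11.6 and 13.1 CPM on day 14 and 8.42, 7.39, 5.11 and 6.61 CPM on day 8, higher without overlap by 0.94 ± 0.20 (edgeR adjusted p = 0.00454) and in all 17 alternative settings. PLXNA2 had 10.8, 7.63 and 13.7 CPM on day 14 and 7.18, 6.13, 3.59 and 6.44 CPM on day 8. It was higher by 0.88 ± 0.26 (edgeR adjusted p = 0.0255), but not without TMM scaling (edgeR adjusted p = 0.120) and not without day 14 replicate 1 or day 14 replicate 4 (edgeR adjusted p 0.0596 to 0.140). In the opposite direction, PLXNA4 had 14.1, 9.32 and 11.3 CPM on day 14 and 31.1, 24.2, 17.2 and 19.3 CPM on day 8. Its days did not overlap, with a difference of -0.98 ± 0.23 (1.97-fold lower, edgeR adjusted p = 0.00764, and 0.0509 without day 14 replicate 2). PLXNA1 ENSDARG00000114823, a receptor of Sema6D in chick and mouse, had 46.1, 33.0 and 36.8 CPM on day 14 and 78.1, 76.9, 60.4 and 67.5 CPM on day 8. All day 14 libraries were lower, and the difference of -0.87 ± 0.17 (1.83-fold lower, edgeR adjusted p = 0.00279) was called in all 17 alternative settings. Of 5 plexin B genes, the receptors of class 4 semaphorins, only plxnb2a.3 was called. It had 4.11, 3.85 and 2.66 CPM on day 14 and 2.55, 1.11, 2.07 and 1.53 CPM on day 8, a difference of 0.99 ± 0.32 (edgeR adjusted p = 0.0362) that was lost without TMM scaling (edgeR adjusted p = 0.0930) and without day 14 replicate 1, day 14 replicate 2, day 8 replicate 2 or day 8 replicate 4 (edgeR adjusted p 0.0849 to 0.130). Its tandem neighbour by name, plxnb2a.1, had 49.6, 37.5 and 44.4 CPM on day 14 and 48.3, 43.0, 30.5 and 35.1 CPM on day 8 and was not called (0.16 ± 0.18). PLXNC1, the only plexin C gene, was near 1 CPM in every library and was not called.

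Neuropilins bind class 3 semaphorins and vascular endothelial growth factors. NRP2 ENSDARG00000038446 had 270, 261 and 232 CPM on day 14 and 185, 152, 118 and 142 CPM on day 8. It was higher in every day 14 library, by 0.77 ± 0.17 (1.70-fold, edgeR adjusted p = 0.00568), although without TMM scaling the adjusted p was 0.0599. The other gene named NRP2, ENSDARG00000096546, had 109, 94.6 and 81.7 CPM on day 14 and 136, 106, 75.3 and 86.4 CPM on day 8, which overlapped (-0.08 ± 0.20, edgeR adjusted p = 0.800). NRP1 and nrp1b were not called without the block.

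The largest fall among guidance genes was that of 1 Eph receptor, epha2a. Of 7 EphA genes, 2 were called higher and 1 lower (42.9%, against 25.3% of all genes). epha2a had 44.0, 25.3 and 23.6 CPM on day 14 and 128, 124, 113 and 72.5 CPM on day 8. The days were far apart, and the difference of -1.82 ± 0.26 (3.52-fold lower, edgeR adjusted p = 5.50e-04) was called in all 17 alternative settings. Its copy epha2b went the other way, at 158, 125 and 173 CPM on day 14 and 108, 112, 84.3 and 116 CPM on day 8. The days did not overlap and the difference was 0.53 ± 0.17 (edgeR adjusted p = 0.0335), which was lost without TMM scaling (edgeR adjusted p = 0.221) and without day 14 replicate 1, day 14 replicate 4, day 8 replicate 2 or day 8 replicate 3 (edgeR adjusted p 0.0501 to 0.145). EPHA4 ENSDARG00000054454, a receptor of both ephrin classes, had 84.4, 83.6 and 83.2 CPM on day 14 and 74.4, 60.8, 49.2 and 56.2 CPM on day 8. The day 14 libraries were almost equal and all higher, by 0.48 ± 0.16 (edgeR adjusted p = 0.0427), but the call was lost without TMM scaling (edgeR adjusted p = 0.319) and without any library other than day 8 replicate 1 (edgeR adjusted p 0.0626 to 0.121). epha7, at 148, 124 and 116 CPM on day 14 and 198, 144, 80.9 and 99.3 CPM on day 8, overlapped and was not called (-0.01 ± 0.26). EPHA3, EPHA6 and the other gene named EPHA4 were not called.

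EphB genes were called higher in 2 of 6 cases (33.3%, against 12.0% of all genes) and lower in none. EPHB3 ENSDARG00000031548 had 32.5, 32.6 and 28.5 CPM on day 14 and 19.7, 19.7, 17.7 and 19.6 CPM on day 8. The values were tight within each day, and the difference of 0.70 ± 0.14 (1.63-fold, edgeR adjusted p = 0.00358) was called in all 17 alternative settings. ephb4b, a copy of the ephrin-B2 receptor EphB4, had 60.4, 61.8 and 59.3 CPM on day 14 and 45.0, 44.3, 48.1 and 42.9 CPM on day 8. It was higher by 0.42 ± 0.13 without overlap (edgeR adjusted p = 0.0332), but not without TMM scaling (edgeR adjusted p = 0.215) and not without any of the 3 day 14 libraries, nor without day 8 replicate 2 or day 8 replicate 4 (edgeR adjusted p 0.0748 to 0.107). EPHB2 ENSDARG00000021539 had 78.9, 62.0 and 63.1 CPM on day 14 and 79.3, 54.0, 38.8 and 44.6 CPM on day 8 and was not called (0.33 ± 0.22, edgeR adjusted p = 0.301), except without day 8 replicate 1 (0.57, edgeR adjusted p = 0.0259).

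Among the receptors of Slits and netrins 1 gene was called. All 4 Robo genes overlapped between the days and none was called. Over all genes, 34.8% did not overlap and 25.3% were called. ROBO1 had 47.5, 35.7 and 33.6 CPM on day 14 and 53.4, 42.2, 30.0 and 30.4 CPM on day 8, with a difference of 0.00 ± 0.22. The differences of ROBO2, ROBO3 and robo4 were -0.22 ± 0.27, 0.41 ± 0.22 and 0.14 ± 0.20, and ROBO3 was called higher without day 8 replicate 1 (0.60, edgeR adjusted p = 0.0434). Among 4 Unc5 genes, receptors that mediate repulsion by netrin, UNC5C ENSDARG00000087341 was called (25.0%, against 25.3% of all genes). It had 1.74, 1.05 and 1.49 CPM on day 14 and 1.00, 0.332, 0.435 and 0.554 CPM on day 8. Its difference of 1.36 ± 0.43 (edgeR adjusted p = 0.0374) rested on libraries with as few as 8 counts, was not called without TMM scaling (edgeR adjusted p = 0.0838), and was lost without any library other than day 8 replicate 1 (edgeR adjusted p 0.0526 to 0.141). UNC5A, at 9.23, 6.47 and 8.03 CPM on day 14 and 8.73, 8.64, 6.47 and 7.08 CPM on day 8, was not called (0.04 ± 0.20), and neither were UNC5B and the other gene named UNC5C.

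**Figure D4:**
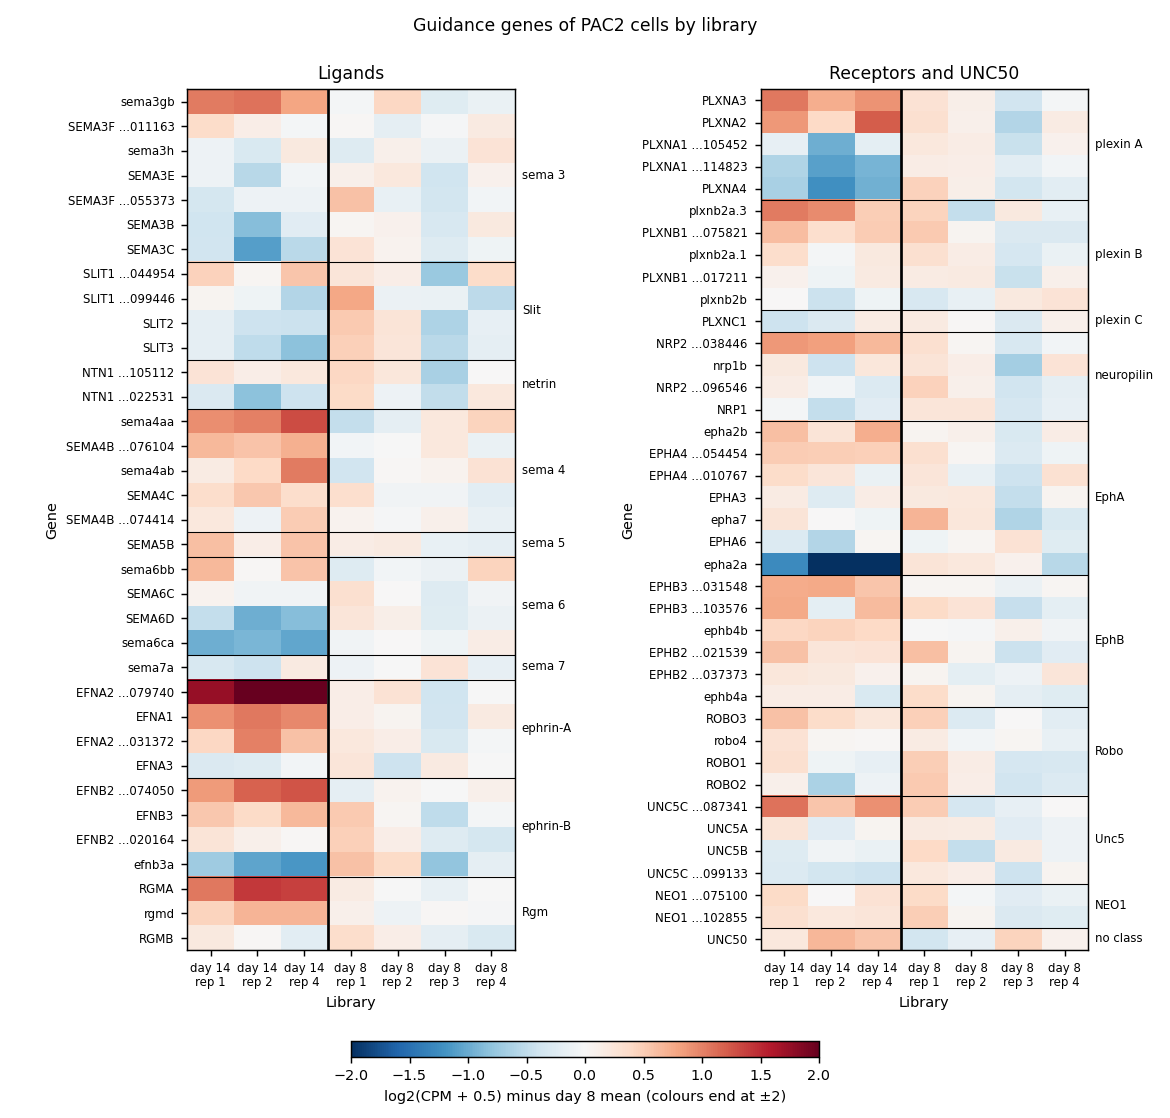
Log2(CPM + 0.5) of all 74 guidance genes (rows, grouped by family) in the 3 day 14 and 4 day 8 libraries (columns), minus the gene's day 8 mean, with colours ending at ±2 and genes that share a symbol marked by the last digits of their identifier. EFNA2 ENSDARG00000079740 (log2 difference 2.49) is the deepest red and epha2a (-1.82) the deepest blue on day 14, and day 8 replicates 1 and 3 differ in shade over many rows.

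Zebrafish keep many genes in 2 copies, and the calls of such copies are set side by side here. Of 20 pairs of members with the same name, or the same name apart from a final copy letter, 0 had both copies called in the same direction. In 12 pairs 1 copy was called and the other was not, in 7 neither was called, and in 1, epha2a and epha2b, they were called in opposite directions. A call in 1 copy alone does not show that the copies differed. The EPHB3 genes had differences of 0.70 and 0.46 and the EPHA4 genes 0.48 and 0.17, and in both pairs the ratio of the copies overlapped between the days. With the replicate block 2 pairs had both copies called in the same direction, PLXNA1 (both lower) and sema4aa with sema4ab (both higher), while 12 had 1 copy called and 5 had neither. The log2 ratio of epha2b to epha2a was 1.84, 2.30 and 2.87 on day 14 and -0.25, -0.15, -0.43 and 0.68 on day 8. The ratio of EFNB3 to efnb3a was 0.46, 0.67 and 1.05 on day 14 and -0.89, -1.18, -0.56 and -0.69 on day 8. In both pairs every day 14 ratio lay above every day 8 ratio. As CPM are not corrected for transcript length, the sign of a ratio does not show which copy was more abundant. For SEMA6C over sema6ca the ratio was 4.85, 4.62 and 4.79 on day 14 and 4.01, 3.61, 3.44 and 3.38 on day 8, and for NRP2 ENSDARG00000038446 over NRP2 ENSDARG00000096546 it was 1.30, 1.46 and 1.51 on day 14 and 0.45, 0.51, 0.65 and 0.71 on day 8. The ratio separated the days in 10 of the 20 pairs, a description for which no test was run. Shares over copy pairs of the whole matrix were not computed, so neither this count nor the counts of pairs with calls have a background beside them. For single genes, another measure, 25.3% of all genes were called (36.6% with the replicate block), and the days did not overlap in 34.8%. Reads that fit both copies are divided by estimation: 37 of the 74 guidance genes had whole counts in all 7 libraries (tolerance 0.001, against 43.0% of all genes), epha2b, both NRP2 genes and both EFNB2 genes among them, epha2a had them in 3, and 18, EFNA1, SEMA6C and epha7 included, had none. Ratios of such genes are uncertain to that extent.

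**Figure D5:**
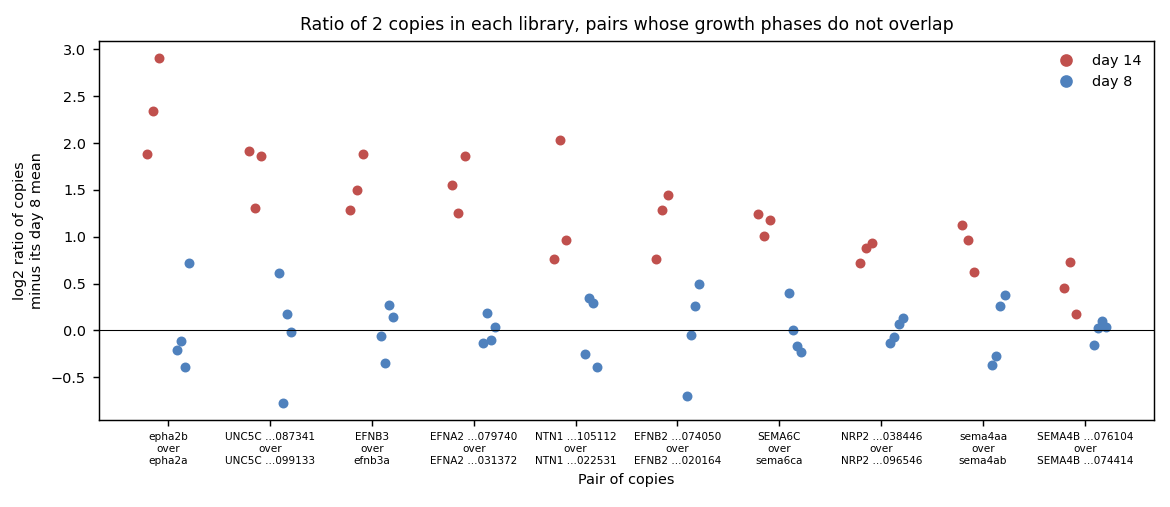
Log2 ratio of 2 gene copies in each day 14 library (red, left) and day 8 library (blue, right), minus the mean of the day 8 ratios (y axis), for the 10 pairs (x axis) whose days do not overlap. The copy with the larger difference was put on top of the ratio, so that day 14 lies above by choice, and what the plot shows is the distance, widest for epha2b over epha2a.

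Inside the cell, guidance receptors act through a common set of kinases, GTPase regulators and cytoskeletal proteins. A list of 72 names of such effectors matched 63 genes, of which 10 were called higher on day 14 and 7 lower (27.0%, against 25.3% of all genes), with a median log2 difference of -0.02. Without TMM scaling 6 were called higher (9.52%, against 6.93% of all genes) and 12 lower (19.0%, against 18.5%). With the replicate block 14 were called higher (22.2%, against 17.7% of all genes) and 13 lower (20.6%, against 18.9%). NGEF, or ephexin, a GTPase activator that binds EphA receptors, had 15.8, 23.4 and 12.1 CPM on day 14 and 4.87, 3.95, 5.16 and 4.78 CPM on day 8. It was higher without overlap, by 1.87 ± 0.23 (edgeR adjusted p = 2.21e-04). RND1 ENSDARG00000004218, a GTPase that binds plexins, was higher by 1.45 ± 0.19 (edgeR adjusted p = 3.09e-04), whereas the other gene named RND1, ENSDARG00000030547, was lower (-0.60 ± 0.17, edgeR adjusted p = 0.0226). PDZRN3, a ubiquitin ligase, was higher by 1.19 ± 0.18 (edgeR adjusted p = 7.02e-04). In the other direction, ABL2, a tyrosine kinase that acts on actin, had 36.3, 25.2 and 26.9 CPM on day 14 and 84.7, 89.1, 83.0 and 74.3 CPM on day 8. It was lower without overlap, with a difference of -1.49 ± 0.17 (edgeR adjusted p = 1.56e-04). DPYSL2, the collapsin response mediator that links semaphorin 3A to microtubules, was also lower (-1.30 ± 0.19, edgeR adjusted p = 6.65e-04), as was kalrnb (-1.07 ± 0.21, edgeR adjusted p = 0.00284). Apart from the second RND1 gene, these calls were kept without TMM scaling and without any single library. Among relatives of the lower genes, named after their values were seen, DPYSL3 (1.04 ± 0.20, edgeR adjusted p = 0.00272) and ABL1 (0.55 ± 0.18, edgeR adjusted p = 0.0361) were higher. Without TMM scaling ABL1 was no longer called (edgeR adjusted p = 0.263). DPYSL5 ENSDARG00000011141 was lower (-0.95 ± 0.18, edgeR adjusted p = 0.00259). The other DPYSL5 gene and KALRN were not called. Chosen after their values were seen, the genes of the protease ADAM10, which sheds ephrin-A ligands in mouse, were both higher on day 14: adam10a had 52.3, 66.8 and 60.1 CPM on day 14 and 38.5, 30.6, 28.6 and 30.1 CPM on day 8 (0.90 ± 0.16, edgeR adjusted p = 0.00167), and adam10b differed by 0.77 ± 0.15 (edgeR adjusted p = 0.00375).

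Set side by side, ligands and their receptors moved in several combinations. In the ephrin-A group, EFNA1 and EFNA2 ENSDARG00000079740 were higher on day 14 together with epha2b and EPHA4 ENSDARG00000054454, while epha2a was lower. The other EFNA2 gene, EFNA3, epha7, EPHA3, EPHA6 and the other EPHA4 gene were not called. In the ephrin-B group, EFNB2 ENSDARG00000074050, EPHB3 ENSDARG00000031548 and ephb4b were higher and efnb3a lower. EFNB2 ENSDARG00000020164, with most of the ephrin-B counts, was not called, and neither were EFNB3, the EPHB2 genes, the other EPHB3 gene and ephb4a. The summed ephrin-B level overlapped, at 120, 108 and 106 CPM on day 14 and 147, 117, 82.6 and 84.7 CPM on day 8. In the class 6 group, SEMA6D, sema6ca, PLXNA1 ENSDARG00000114823 and PLXNA4 were lower, PLXNA2 and PLXNA3 were higher, and SEMA6C and sema6bb were not called. In the Rgm group, RGMA and rgmd were higher and RGMB was not called, at NEO1 levels that were not called. Some of these calls depended on the setting. Of the 17 alternatives, epha2b, EPHA4 ENSDARG00000054454 and ephb4b lost their calls in 5, 7 and 6, PLXNA2 in 3 and efnb3a in 2. SEMA6D, PLXNA4 and rgmd lost theirs in 1 each. In the Slit group, neither ligands nor Robo receptors were called in the fit of all 7 libraries without the block. Markers of endothelium, a cell type that uses many of these genes, matched 5 genes, and 5 of the 10 names listed are not analysed here. They summed to 17.1 to 24.2 CPM on day 14 and 20.1 to 38.1 CPM on day 8. Of these, kdrl and KDR were called lower, with days that overlapped, EGFL7 was called higher, and TIE1 and tek were not called. Over all genes, 13.3% were called lower and 12.0% higher. The 2 matched neural crest and glia markers, of 6 names listed, summed to 2.76 to 5.16 CPM on day 14 and 1.85 to 2.05 CPM on day 8. The part of these cell types in the results was not tested.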

How the data were processed

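RNA of PAC2 cells from 3 day 14 and 4 day 8 cultures was sequenced. Reads were pseudo-aligned by the authors with Kallisto to the zebrafish transcriptome (GRCz11 per the submitters' notes), summed to genes and filtered for very low expression with edgeR (version 4.6.2 in those notes). The deposited matrix is described as normalized, but was treated as unscaled estimated counts, as library totals differ and 43.0% of genes have whole values in all 7 libraries.

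Estimated counts of all 17570 genes were rounded and tested in R 4.3.3 with edgeR 4.0.16 (TMM, estimateDisp, robust glmQLFit, glmQLFTest, growth phase as the only term). The design with growth phase alone follows the study, whose methods also describe a normalization with transcript lengths that was not repeated here. The SE is the absolute log2 difference over the root of F. Genes were found by symbol in a gene name table, which pairs 85.8% of identifiers with a symbol; 14 symbols are held by 2 guidance genes each. The members and lists were chosen with earlier results of these data known. Named genes are every called member, SEMA6C, the highest member of each family by mean CPM, uncalled members with an absolute log2 difference above 1, and the 3 largest effector calls in each direction; others were chosen after their values were seen. The 17 alternatives were other scalings, DESeq2 1.42.0, limma 3.58.1, other forms of the fit, gene filters, the replicate block and the omission of each library. The edgeR fit, the replicate block, a newer form of the edgeR fit, limma on log2(CPM + 1) and DESeq2 were first tested on simulated counts with known changes. The other alternatives were not. Figures used matplotlib 3.10.9.

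Replicates were passages begun on separate days, and the same number on both days marks the same passage, so that day 14 and day 8 libraries are paired. Across genes, deviations from the day's mean had a correlation of 0.302 for the libraries of replicate 1, 0.376 for replicate 4 and -0.121 for replicate 2. For libraries of different numbers it was -0.329 to 0.339.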

Additional observations from a re-analysis of the deposited data

Results flagged for a closer look

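EPHB3 ENSDARG00000031548 had 17.7 CPM in day 8 replicate 3, whereas the other day 8 libraries had 19.7, 19.7 and 19.6 CPM. The gap to the nearest library was 0.945 of the day 8 range, so that this library stood apart among tightly grouped values. It was the only such case among the day 8 values of 41 named guidance genes. At the 95% critical value of Dixon's test that was used, chance flags about 1 group in 20. The day 14 values of 28.5 to 32.6 CPM lay above all 4 day 8 libraries, and the gene was called higher on day 14 in every alternative, the one without day 8 replicate 3 included.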

How the results depend on the processing

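DESeq2, limma, median-of-ratios scaling and the other forms of the quasi-likelihood fit kept all 24 calls. Without TMM scaling 15 of 24 were kept: guidance genes called higher were 8 (receptors 2), the median log2 difference of guidance genes was -0.039, and effectors were called higher in 6 and lower in 12 cases. Pairing by the replicate block kept all 24, and gave 21 guidance genes called higher (9 membrane-anchored ligands, 10 receptors) and 13 lower (5 secreted ligands, 5 receptors), with 14 effectors higher and 13 lower. With the filter at 1 CPM, or at 10 counts in every library, secreted ligands called higher were 0. Leaving out 1 library at a time gave 9 to 22 guidance genes called higher and 3 to 9 called lower; 0 to 1 secreted ligands higher and 0 to 3 lower; 5 to 9 membrane-anchored ligands higher and 1 to 3 lower; and 3 to 12 receptors higher and 2 to 3 lower. The lowest numbers of calls kept were 14 without day 14 replicate 4 and 15 without day 14 replicate 2. Shares of all genes called under the gene filters and with 1 library left out are not given here. These counts therefore have no background beside them and do not describe guidance genes in particular. Of the 24 calls, 9 held in all 17 alternatives, and no call reversed. Genes with few counts, such as sema3gb, sema4aa and UNC5C ENSDARG00000087341, are limited by depth.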
